A study of Arabidopsis thaliana with 24 samples.

Results

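Transcript levels of 5 Arabidopsis thaliana genes of the TMO5, TMO6, TMO7 and LHW group were examined across early embryo cell types. TMO5, TMO6 and TMO7 are TARGET OF MONOPTEROS genes, LHW is LONESOME HIGHWAY, and T5L1 (TMO5-LIKE 1) is a paralogue of TMO5. The members were taken by locus (AT3G25710 TMO5, AT1G68810 T5L1, AT2G27230 LHW, AT5G60200 TMO6 and AT1G74500 TMO7), 5 of the 32399 loci listed, and the rule itself uses no measured value. RNA-seq libraries came from hybrid embryos of reciprocal crosses between the accessions Col and Ler. The embryo proper, which forms the seedling, and the suspensor, the stalk below it, were taken from embryos of 32 cells. The apical cell and the basal cell, the daughters of the zygote, were collected at the stage of 2 cells. Each of these 4 cell types was collected from both directions of the cross, Col mother by Ler father and Ler mother by Col father, which gives 8 groups of 3 libraries. No group carried a mutation, a transgene or a treatment, so every embryo is a wild type hybrid. Per the labels, messenger RNA was captured on beads, its cDNA was made with SMART-Seq v4 chemistry, and plants grew in long days. The number of embryos or cells behind a library, and whether replicates shared plants, are not given in the labels, although the series text calls the replicates independent.

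The auxin response factor MONOPTEROS (MP) activates TMO5, TMO6 and TMO7 in the young embryo. TMO5 and T5L1 are basic helix-loop-helix (bHLH) factors that act as heterodimers with LHW, another bHLH protein, and together they drive the lengthwise divisions that widen the vascular cylinder, in part through LOG4 and LOG3, enzymes that release active cytokinin. TMO6 is a Dof zinc finger factor of the vascular tissue, and TMO7 is a small bHLH-type protein known to move into the uppermost suspensor cell, the hypophysis, from which the root tip is founded.

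In the RefSeq annotation of assembly TAIR10.1, TMO5 lies on the plus strand of chromosome 3, bases 9369499 to 9371487, with an mRNA of 1525 bases in 2 exons. T5L1 lies on the plus strand of chromosome 1, bases 25861094 to 25863534, with an mRNA of 1954 bases in 2 exons. LHW lies on the plus strand of chromosome 2, bases 11650358 to 11654143, with a longest mRNA of 2705 bases in 9 exons and 2 annotated transcripts. TMO6 lies on the plus strand of chromosome 5, bases 24240810 to 24242523, with an mRNA of 1614 bases in 2 exons. TMO7 lies on the minus strand of chromosome 1, bases 27997919 to 27998821, with an mRNA of 814 bases in 2 exons, of which 282 bases code for protein. None of the 50-base stretches of these 5 mRNAs was found, on either strand, in the mRNA of another locus listed in the files, so reads of that length would not be split between them and a near-identical copy.

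The 250 bases before the annotated start of TMO5, T5L1 and TMO6 are shown because TMO5 and TMO6 had much the same profile over the libraries, while T5L1, the paralogue of TMO5, had another. Capitals mark TGTC, the core letters of auxin response elements, or GACA where the match is on the other strand. The sequences are RefSeq TAIR10.1, read 5′ to 3′ on the gene's strand, from chr3:9369249-9369498 (plus), chr1:25860844-25861093 (plus) and chr5:24240560-24240809 (plus).
TMO5: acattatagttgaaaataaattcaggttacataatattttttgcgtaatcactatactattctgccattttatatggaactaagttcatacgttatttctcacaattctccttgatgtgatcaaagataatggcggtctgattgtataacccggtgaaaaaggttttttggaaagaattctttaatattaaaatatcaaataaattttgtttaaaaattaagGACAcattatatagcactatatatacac
T5L1: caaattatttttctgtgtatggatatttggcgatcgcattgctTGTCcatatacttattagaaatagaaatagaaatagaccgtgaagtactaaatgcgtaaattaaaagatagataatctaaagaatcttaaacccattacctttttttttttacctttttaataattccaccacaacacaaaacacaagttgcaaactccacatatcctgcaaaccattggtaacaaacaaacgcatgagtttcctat
TMO6: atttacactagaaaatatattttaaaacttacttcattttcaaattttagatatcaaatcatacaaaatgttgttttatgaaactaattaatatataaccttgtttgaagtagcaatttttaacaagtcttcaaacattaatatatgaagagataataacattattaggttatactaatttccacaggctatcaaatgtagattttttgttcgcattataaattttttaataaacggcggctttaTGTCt
Each of the 5 members has 1 match to TGTC in its 250 bases, counting both strands, and 74.7% of 30613 loci have at least 1 in the same window. The longer forms TGTCTC and TGTCGG, the first 4 letters of which are the core just named, have no match in any of the 5 windows, against at least 1 match in 10.8% and 4.13% of all windows. CANNTG, the letters that bHLH factors bind, has 1 match in TMO6, 1 in TMO7 and none in the other 3 members, against at least 1 in 55.7% of all windows. These counts describe this window alone.

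Levels are the authors' FPKM (fragments per kilobase of transcript, scaled to library size), which can be set side by side between genes. Depth is not stated; the spacing of low values put it at about 17.1 to 39.6 M fragments in 22 libraries and gave no estimate for apical cell Col 1 and Col 3. Each library held 12611 to 15366 loci at an FPKM of at least 1, and the top 10 loci by level held 16.1 to 26.3% of all FPKM in suspensor libraries against 4.32 to 6.73% elsewhere. The cell type labels fit the lineage markers between embryo proper and suspensor. There 5 of 5 apical markers (among them WOX2 and DRN) were higher and 4 of 4 basal markers (among them WOX8) lower, against 28.5% and 22.4% of all tested genes. Between apical and basal cell 2 of 5 apical markers were higher and 3 of 4 basal markers lower, against 11.8% and 12.2%. Some were also high on the other side. PDF1 averaged 1156 FPKM in suspensor against 4614 in embryo proper, and WOX9 105 in embryo proper against 229 in suspensor. WOX2 averaged 94.4 FPKM in basal cell against 166 in apical cell. Of 8 endosperm markers, PHE1 and ZOU were listed at 0 in every library, and the summed level of the list ran from 0.06 to 2.34 FPKM in embryo proper, 0.92 to 30.5 in suspensor, 0.05 to 2.59 in apical cell and 0 to 18.68 in basal cell libraries. The 11 seed coat markers summed to 26.82 to 37.94 FPKM in embryo proper, 6.24 to 48.07 in suspensor, 1.47 to 3.72 in apical cell and 2.9 to 49.01 in basal cell libraries, with TT10 at 0 throughout. Of the 6 seed coat markers tested, MUM4 and STK were higher in embryo proper than in suspensor and made up most of the sum there, at 13.7 ± 2.67 and 17.7 ± 5.71 FPKM (SD, n = 6 each). The other 4 (BAN, CHS, DFR and LDOX) had lower means in embryo proper, uncalled, with log2 differences of -1.54 to -0.34, and the median of the 6 was -0.63; the part of such RNA in the values below was not tested. In bulk libraries of this kind fewer cells of a type and less RNA per cell cannot be told apart.

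TMO5 was detected in the embryo proper and listed at 0 everywhere else. In embryo proper from a Col mother it stood at 78.61, 14.65 and 69.14 FPKM, and in embryo proper from a Ler mother at 59.68, 40.08 and 31.28 FPKM. In all 6 suspensor, 6 apical cell and 6 basal cell libraries it was listed at 0. Thus even the lowest embryo proper library, the second with a Col mother, lay apart from the other 18. That library rests on an estimated 492 fragments, against 977 to 3827 in the other 5, and the 6 libraries averaged 48.9 ± 24.4 FPKM (SD, n = 6). Among loci at an FPKM of at least 1 in the same library, TMO5 ranked between percentiles 53.7 and 86.8 in the embryo proper. On the log2(FPKM + 1) scale TMO5 was 5.45 higher in embryo proper than in suspensor (SE 0.33, limma adjusted p = 6.11e-12) and 5.45 higher than in the apical cell (limma adjusted p = 2.69e-11). With the other side at 0 that size is set by the pseudocount, being 8.74 with 0.1 and 3.28 with 5, so no fold is given. Most groups had no spread at all, so an exact two-sided permutation test over the 6 and 6 libraries was run as well, and it gave p = 0.002165 in both comparisons, the smallest that splits of 6 and 6 libraries allow.

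**Figure D1:**
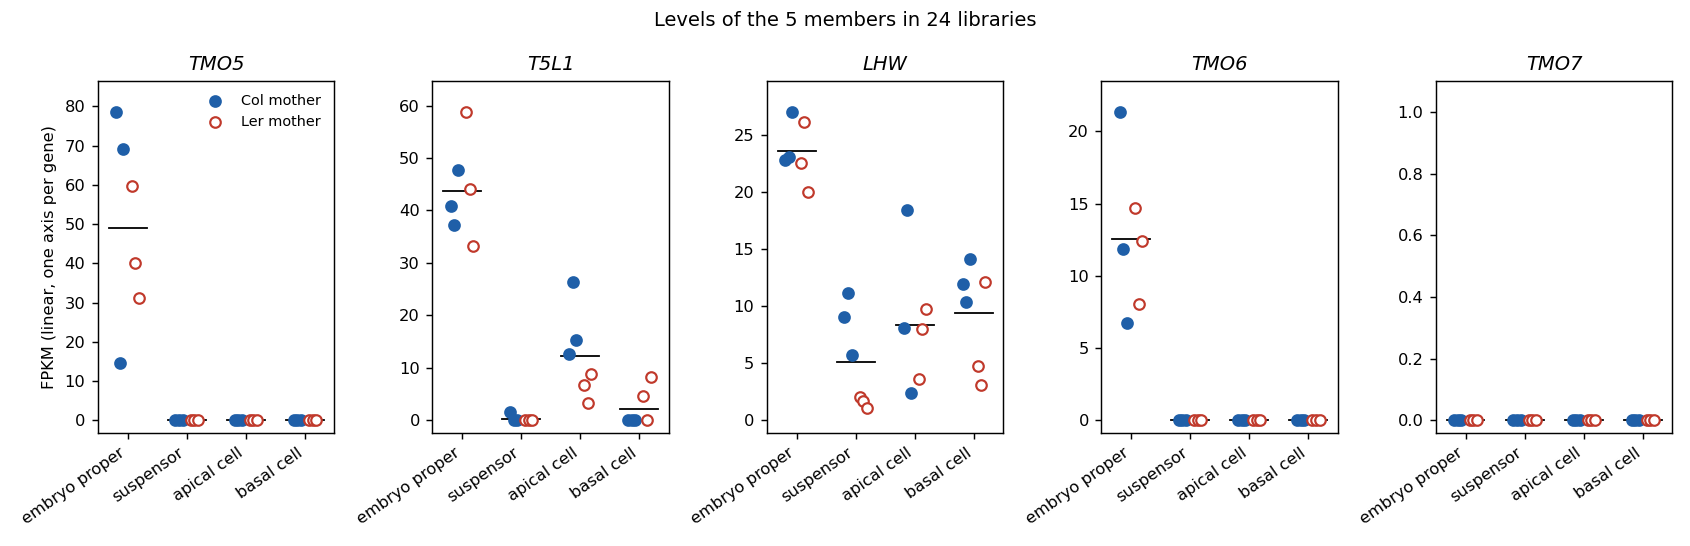
FPKM of each member (linear vertical axis, scaled per gene) in each of 24 libraries, grouped by cell type on the horizontal axis, with filled points for a Col mother, open points for a Ler mother and a line at the mean of 6 libraries. TMO5 and TMO6 stand above 1 FPKM in the 6 embryo proper libraries and in no other, T5L1 is also present in the apical cell, LHW is above 1 FPKM in all 24 libraries, and TMO7 is at 0 in all of them.

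T5L1 was present earlier than TMO5, already in the apical cell of the embryo of 2 cells, and reached its highest level in the embryo proper. In embryo proper it stood at 40.85, 37.20 and 47.74 FPKM with a Col mother and at 58.79, 44.13 and 33.21 FPKM with a Ler mother. Suspensor libraries held 1.57, 0 and 0 FPKM with a Col mother and 0 in all 3 with a Ler mother. The embryo proper and suspensor libraries did not overlap, and the lone suspensor value belongs to the first library with a Col mother, whose summed seed coat markers, at 48.07 FPKM, were the highest of the suspensor. Of the apical markers, HAN was also highest in that suspensor library, at 5.27 FPKM, while WOX2, DRN and PDF1 were highest in others. The source of the T5L1 value was not tested. Apical cell libraries held 12.70, 26.35 and 15.21 FPKM with a Col mother and 6.75, 3.34 and 8.75 FPKM with a Ler mother. In basal cell libraries T5L1 was listed at 0 in all 3 with a Col mother and at 4.61, 0.12 and 8.25 FPKM with a Ler mother. Apical and basal cell libraries therefore overlapped, through the Ler mother alone.

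The level of T5L1 fell in the order embryo proper, apical cell, basal cell and suspensor, the last pair not differing beyond their spread. It was 5.23 higher on the log2(FPKM + 1) scale in embryo proper than in suspensor (SE 0.43, limma adjusted p = 7.9e-10; exact permutation p = 0.002165). It was 1.97 higher in embryo proper, at 43.7 ± 8.996 FPKM, than in apical cell, at 12.2 ± 8.12 FPKM (SD, n = 6 each), 3.58 times the mean level (limma adjusted p = 0.00142; exact permutation p = 0.002165). That call was lost with a pseudocount of 0.1 (limma adjusted p = 0.06906) and within the cross with a Col mother, where the difference was 1.23 (limma adjusted p = 0.233). Apical cell over basal cell gave 2.51 (SE 0.43, limma adjusted p = 1.67e-04; exact permutation p = 0.01299), but within the cross with a Ler mother the difference was 0.83 (limma adjusted p = 0.404). Suspensor minus basal cell gave -0.75 (limma adjusted p = 0.164; exact permutation p = 0.303) and was called within the cross with a Ler mother alone, at -1.95 (limma adjusted p = 0.015). Without the second basal cell library with a Ler mother it was called as well, at -1.20 (limma adjusted p = 0.0109).

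LHW, the shared partner, was the 1 member above 1 FPKM in all 24 libraries, and its level was highest and most even in the embryo proper. There it stood at 22.77, 23.05 and 27.03 FPKM with a Col mother and at 22.57, 26.14 and 20.04 FPKM with a Ler mother, a coefficient of variation of 10.9%, against 49.8% for TMO5, 41.8% for TMO6 and 20.6% for T5L1 in the same libraries. Suspensor libraries held 9.06, 11.12 and 5.71 FPKM with a Col mother and 2.01, 1.66 and 1.06 FPKM with a Ler mother. Every embryo proper library lay above every suspensor library. Apical cell libraries held 8.11, 18.45 and 2.43 FPKM with a Col mother and 3.61, 7.97 and 9.73 FPKM with a Ler mother. Basal cell libraries held 11.91, 10.35 and 14.15 FPKM with a Col mother and 4.74, 3.07 and 12.15 FPKM with a Ler mother. These 2 early cell types overlapped fully, and neither reached the lowest embryo proper library.

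LHW averaged 23.6 ± 2.57 FPKM in embryo proper and 5.10 ± 4.24 FPKM in suspensor (SD, n = 6 each), 4.62 times the mean level and 2.33 higher on the log2 scale (SE 0.38, limma adjusted p = 2.22e-05; exact permutation p = 0.002165). Against the apical cell, at 8.38 ± 5.69 FPKM, the embryo proper was 1.61 higher (limma adjusted p = 0.00298; exact permutation p = 0.002165), and within the cross with a Col mother the difference was 1.57 with a limma adjusted p = 0.0586. Apical cell minus basal cell gave -0.22 (SE 0.38, limma adjusted p = 0.727; exact permutation p = 0.645). The suspensor, at 5.10 ± 4.24 FPKM, was 0.94 lower on the log2 scale than the basal cell, at 9.40 ± 4.45 FPKM (SD, n = 6 each; log2 -0.94, limma adjusted p = 0.0482). That last call was lost under 11 of 16 other settings and on leaving out any 1 of 18 libraries (log2 between -1.13 and -0.70, limma adjusted p up to 0.141). The exact permutation test over the 6 and 6 libraries gave p = 0.1147. The order of LHW levels thus put the embryo proper apart from the other 3 cell types, whose libraries overlapped one another.

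Because FPKM is per length, the members' levels could be compared within a library. In the embryo proper TMO5 made up 49.9 ± 12.8% of the summed TMO5 and T5L1 level (SD, n = 6; 28.25 to 65.8%), so neither paralogue was the higher one throughout. In the apical cell it made up 0%, since TMO5 was listed at 0 there. The log2 level of TMO5 relative to T5L1 was 3.48 higher in embryo proper than in apical cell (exact permutation p = 0.002165, adjusted over 4 comparisons 0.00866; higher in 6 of 6 libraries against every apical one). With TMO5 at 0 in the apical cell the size is set by the pseudocount, being 6.65 with 0.1 and 1.67 with 5. The same relative level differed by 0.22 between embryo proper and suspensor (exact permutation p = 0.593) and by -2.51 between apical and basal cell (p = 0.013, adjusted 0.026), the last being the difference of T5L1 alone, since TMO5 was at 0 in both daughter cells. In suspensor TMO5 was listed at 0 in 6 libraries and T5L1 in 5, so the pseudocount sets the relative level there. The difference of 0.22 therefore does not measure the balance of the 2 genes in suspensor.

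The summed level of TMO5 and T5L1 was 3.92 ± 1.22 times that of LHW in the embryo proper (SD, n = 6; 2.25 to 5.25 times) and 2.07 ± 2.11 times in the apical cell (0.419 to 6.26). In suspensor libraries the ratio was 0 to 0.173 and in basal cell libraries 0 to 0.973, so LHW was the higher there. On the log2 scale LHW relative to TMO5 plus T5L1 was 3.92 lower in embryo proper than in suspensor (log2 -3.92, exact permutation p = 0.002165, adjusted over 4 comparisons 0.00866). It was 2.73 lower in apical than in basal cell (log2 -2.73, p = 0.013, adjusted 0.026, exact permutation) and 1.38 lower in embryo proper than in apical cell (log2 -1.38, p = 0.0195, adjusted 0.026, exact permutation). The last of these missed the threshold without the first embryo proper library of either cross, where the adjusted p reached 0.0548. Suspensor minus basal cell gave -0.19 (exact permutation p = 0.81). Where the sum of TMO5 and T5L1 was at 0 in most libraries the pseudocount sets the size, which for embryo proper against suspensor was -6.44 with 0.1 and -2.56 with 5, and for apical against basal cell -4.74 and -1.40. The partner was thus in excess in the basal lineage and the TMO5 and T5L1 transcripts in excess in the embryo proper; protein was not measured.

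**Figure D2:**
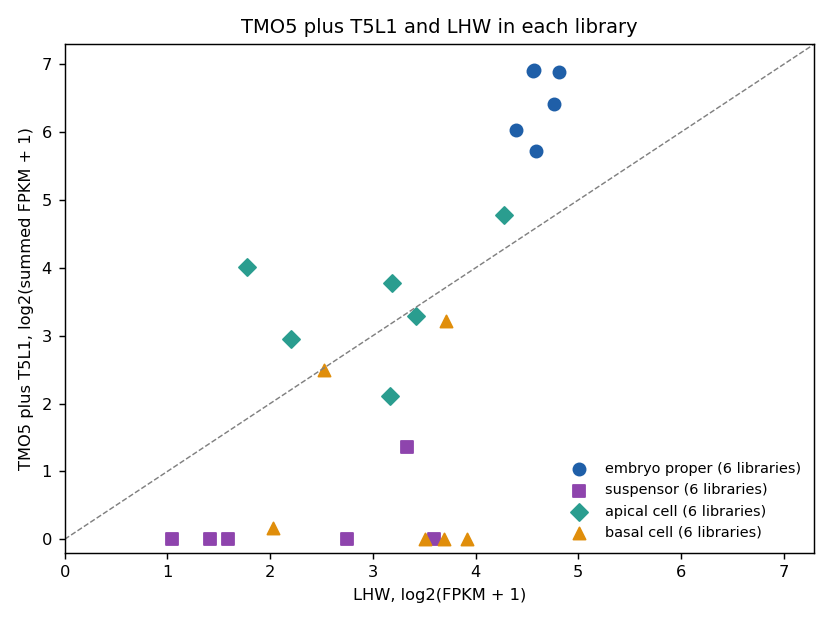
LHW on the horizontal axis and the sum of TMO5 and T5L1 on the vertical axis, both as log2(FPKM + 1), with 1 point per library and a dashed line where they are equal. The 6 embryo proper libraries lie above the line at summed levels of 51.85 to 119.5 FPKM, and 6 of 6 suspensor libraries lie below it with sums of 0 to 1.57 FPKM.

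TMO6 followed TMO5 in being found in the embryo proper and near 0 elsewhere. In embryo proper it stood at 21.35, 11.84 and 6.74 FPKM with a Col mother and at 14.73, 8.06 and 12.41 FPKM with a Ler mother. Among the other 18 libraries it was listed at 0.04 FPKM in the first suspensor library with a Ler mother, at 0.03 FPKM in the second basal cell library with a Col mother and in the first with a Ler mother, and at 0 in the remaining 15. Each of those 3 values is worth about 1 fragment, so they cannot be told from 0 at this depth. The embryo proper libraries lay far above them, on an estimated 209 to 1049 fragments each. TMO6 was 3.66 higher in embryo proper than in suspensor (SE 0.26, limma adjusted p = 5.84e-11) and 3.67 higher than in apical cell (limma adjusted p = 2.4e-10) on the log2 scale, with an exact permutation p of 0.002165 in both. At 12.5 ± 5.23 FPKM (SD, n = 6) it was the lowest of the 4 detected members in the embryo proper. TMO6 and LHW overlapped there through the highest TMO6 and the lowest LHW library, whereas every T5L1 value lay above every LHW value.

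TMO7 was listed at 0 in all 24 libraries, including the 6 of suspensor, the tissue whose uppermost cell becomes the hypophysis. It therefore entered no test. A single fragment of its 814-base mRNA would be worth about 0.0353 to 0.0819 FPKM, so a listing to 2 decimals would show it. Of 2286 protein-coding loci with an mRNA of 800 to under 1000 bases, 469, or 20.5%, were likewise at 0 in all libraries, against 50.3% of loci under 500 bases, 3.75% of loci of 2500 bases or more and 15.2% of all 26712. Whether the listing at 0 is a lack of RNA or a failed estimate was not tested.

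The relatives of TMO7, the PRE family of small bHLH-type proteins that lack the DNA-binding basic region, gave little signal too. PRE4 (BNQ3), PRE5 and PRE6 (KDR) were listed at 0 in all 24 libraries. PRE1 had 0.59 FPKM in 1 suspensor library, and PRE2 (BNQ2) had 3.13 and 0.1 FPKM in 2. Of 9 genes of the PRE and atypical bHLH list 1 was tested, IBH1, a growth inhibitor that PRE proteins bind. It was lower in apical than in basal cell (log2 -0.95, limma adjusted p = 0.0228), as were 12.2% of all tested genes. IBH1 passed the filter for testing, an FPKM of 1 in 3 libraries, only through basal cell libraries at 4.22, 2.35 and 1.7 FPKM. The other basal cell libraries held 0.12 FPKM or less, so the direction was set by the filter and the ranges overlapped. IBH1 was at 0 in 6 apical libraries and 1.40 ± 1.70 FPKM in basal cell libraries (SD, n = 6). PAR1, which also lacks DNA binding, reached 1.14 ± 1.22 FPKM in embryo proper and was not tested.

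**Figure D3:**
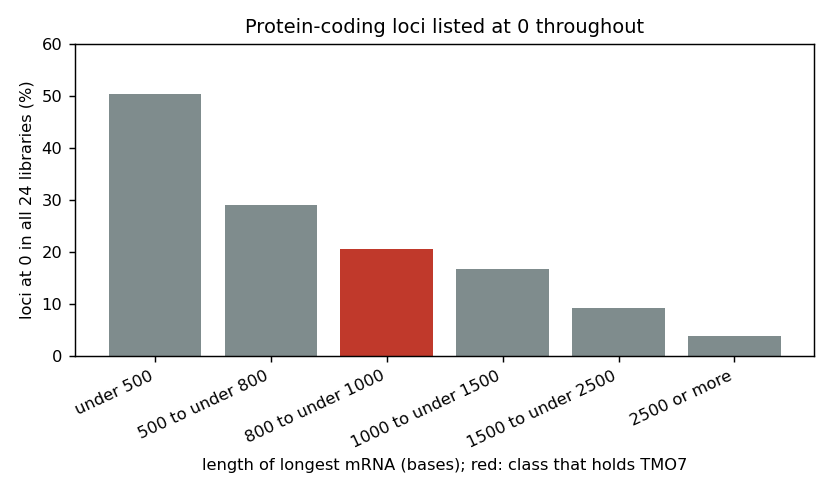
Share of protein-coding loci listed at 0 in all 24 libraries (vertical axis, percent) by length class of the longest mRNA (horizontal axis, bases). The share falls with length through all 6 classes, and the red bar, the class of TMO7, stands at 20.5%.

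Between the lineages of the embryo of 32 cells, 4 of 4 tested members were higher in embryo proper than in suspensor, where 28.5% of the 18206 genes tested were higher and 22.4% lower. Between the daughters of the zygote 1 of 4 was higher in apical than in basal cell, T5L1, where 11.8% of all genes were higher and 12.2% lower. In embryo proper against apical cell 4 of 4 were higher, and 10.2% of all genes were higher and 11.7% lower. TMO5 and TMO6 passed the filter for testing only through embryo proper, so their direction in these embryo proper comparisons was set by it. In suspensor against basal cell 0 were higher and 1, LHW, was lower, and 18.9% of all genes were higher and 26.0% lower. The whole gene set was itself off 0 by a median of 0.12 on the log2 scale in embryo proper against suspensor and by -0.15 in suspensor against basal cell, far less than the differences of the members in the embryo proper.

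The lineage difference at 32 cells exceeded that at 2 cells in all 4 tested members, where 19.3% of all genes had a higher and 16.2% a lower value. This interaction was 5.45 for TMO5 (SE 0.47, limma adjusted p = 6.76e-09) and 3.67 for TMO6 (SE 0.36, limma adjusted p = 4.94e-08), both of which were near 0 on both sides at 2 cells. TMO5 and TMO6 passed the filter only through embryo proper, so the direction of their interaction was set by it. The share of all genes is no like background for these 2. The interaction was 2.72 for T5L1 (SE 0.61, limma adjusted p = 0.00124) and 2.55 for LHW (SE 0.54, limma adjusted p = 7.36e-04). Within the cross with a Col mother it was 0.77 for T5L1 (limma adjusted p = 0.574) and 2.05 for LHW (limma adjusted p = 0.0592). LHW was thus called between the lineages at the later stage and not between the daughter cells, while T5L1 was called at both.

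**Figure D4:**
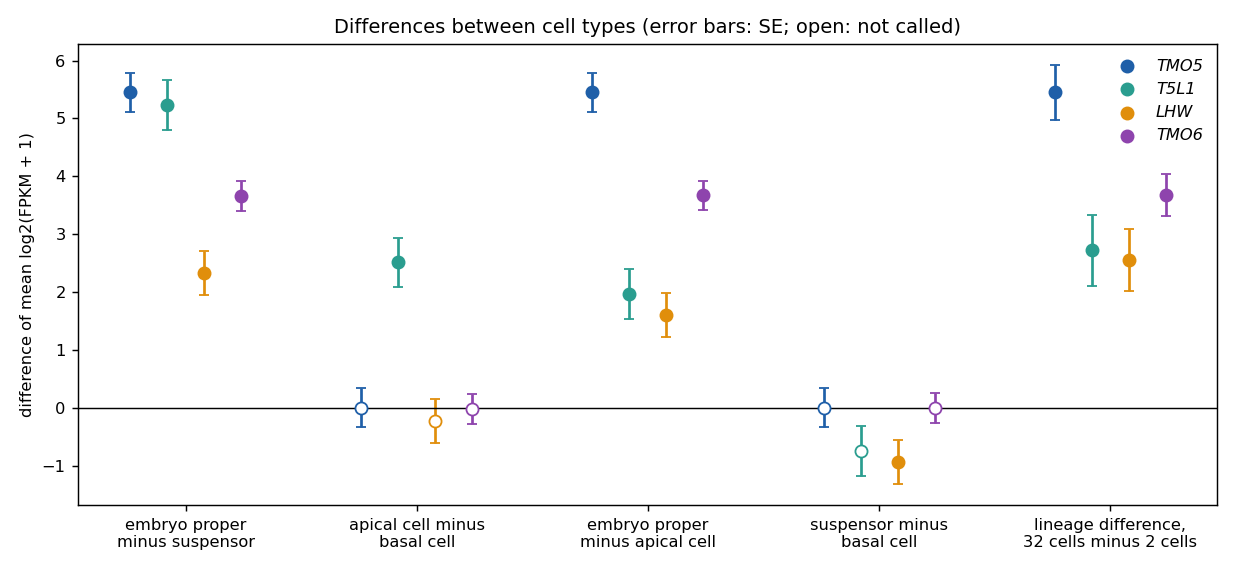
Differences of mean log2(FPKM + 1) (vertical axis) for the 4 tested members in 4 cell type comparisons and in the difference between the lineage differences (horizontal axis), with bars of 1 SE; filled points passed an adjusted p of 0.05 and open points did not. All 4 members lie above 0 where the embryo proper is compared, between 1.61 and 5.45, while T5L1 alone stands clear of 0 between apical and basal cell, at 2.51.

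The direction of the cross was compared within each cell type, 3 libraries with a Col mother against 3 with a Ler mother. In the embryo proper no member was called, with differences of 0.04 for TMO5, -0.08 for T5L1, 0.08 for LHW and 0.07 for TMO6, and limma called 0% of all genes in either direction. At an unadjusted p under 0.05 limma had 54 genes higher and 40 lower there, and with library weights it called 99 and 75. In the suspensor LHW was at 8.63 ± 2.73 FPKM with a Col mother and at 1.58 ± 0.48 FPKM with a Ler mother (SD, n = 3 each), and the libraries did not overlap. The difference of 1.88 stood just inside the threshold (SE 0.54, limma adjusted p = 0.0499), in a comparison where 2.91% of all genes were higher and 1.30% lower, which with library weights were 9 genes higher and 5 lower. It was lost under 7 of 13 other settings, the highest limma adjusted p being 0.553, and on leaving out any 1 of 19 libraries, with differences between 1.69 and 2.12 (limma adjusted p up to 0.133). The first suspensor library with a Ler mother is among the 4 for which the labels also name another library kit, and the difference was 1.99 with the kit wording as a covariate (limma adjusted p = 0.0449) and 2.00 without those 4 libraries (limma adjusted p = 0.0392). The top 10 loci held 22.3 to 26.3% of all FPKM with a Col mother against 16.1 to 19.7% with a Ler mother; their part in this difference was not tested.

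The mean level of T5L1 was the higher one with a Col mother in the apical cell and with a Ler mother in the basal cell, neither of them called. In the apical cell it was at 18.1 ± 7.27 FPKM with a Col mother and at 6.28 ± 2.74 FPKM with a Ler mother (SD, n = 3 each), without overlap, and the difference of 1.40 was not called (limma adjusted p = 0.578). In the basal cell it was listed at 0 in 3 libraries with a Col mother and at 0.12 to 8.25 FPKM with a Ler mother, and the difference of -1.95 missed the threshold (limma adjusted p = 0.053), where 3.97% of all genes were higher and 3.10% lower, or 722 and 564 genes, against 2853 and 2191 with library weights. The contrast between these differences, added after the values were seen, was 3.36 (SE 0.86, limma adjusted p = 0.0565), where 0.379% of all genes were higher and 0.868% lower. Both passed without the second basal cell library with a Ler mother, at -2.85 (limma adjusted p = 0.00396) and 4.25 (limma adjusted p = 0.0043). The first basal cell library with a Ler mother, at 4.61 FPKM of T5L1, also had the highest summed seed coat markers of the basal cell, 49.01 FPKM, and replicates 2 and 3 are among the 4 libraries for which another kit is named; with the kit wording as a covariate the difference by mother was -2.04 (limma adjusted p = 0.0578). Replicate 3, at 8.25 FPKM of T5L1, had 10.86 FPKM of seed coat markers and 0 of endosperm markers. On average over the 4 cell types LHW was 0.77 higher with a Col mother and was not called (limma adjusted p = 0.196), where 0.401% of all genes were higher and 0.390% lower.

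The genes around the members were described from lists of known factors, ordered by role. Of 8 genes upstream, in auxin perception and response, 7 were higher and 0 lower in embryo proper than in suspensor, against 28.5% and 22.4% of all tested genes, with a median difference of 1.51 against 0.12. Between apical and basal cell none of the 8 was called, where 11.8% of all tested genes were higher and 12.2% lower. Their differences there ran from -0.62 for IAA13 (limma adjusted p = 0.366) to 0.87 for TIR1 (limma adjusted p = 0.0741). MP itself stood at 131 ± 20.1 FPKM in embryo proper, 41.0 ± 13.02 in suspensor, 5.86 ± 2.96 in apical cell and 4.90 ± 3.605 in basal cell (SD, n = 6 each), 1.69 higher in embryo proper than in suspensor (limma adjusted p = 3.66e-04) and 3.01 higher in suspensor than in basal cell (limma adjusted p = 3.84e-07). In the suspensor libraries, where TMO5 and TMO6 were at or near 0, MP ran from 28.92 to 63.64 FPKM. BDL (IAA12), the repressor that binds MP, was at 44.1 ± 11.5 FPKM in embryo proper against 20.8 ± 9.63 in suspensor, and 29.6 ± 13.4 in apical cell against 24.8 ± 9.07 in basal cell (SD, n = 6 each). Its relative IAA13 was at 30.4 ± 6.86 FPKM in embryo proper against 1.89 ± 1.63 in suspensor and was listed at 0 in all 6 apical cell libraries. TMO3 (CRF2), another target of MP, was at 34.7 ± 8.16 FPKM in embryo proper and between 1.16 and 2.13 on average in the other 3 cell types.

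Of 5 relatives of TMO5 and LHW, 3 were higher and 0 lower in embryo proper than in suspensor, against 28.5% and 22.4% of all tested genes. Among them 2 genes annotated as bHLH factors had the profile of TMO5. These 2 passed the filter only through embryo proper, so their direction was largely set by it. AT3G56770 was at 32.9 ± 2.77 FPKM in embryo proper (SD, n = 6), at 11.61 FPKM in 1 suspensor library and at 0 in the other 17. AT2G41130 was at 8.51 ± 1.12 FPKM in embryo proper and listed at 0 in all other 18 libraries. LHL3 (AT1G64625), related to LHW, was higher on the apical side at both stages, as T5L1 was, at 20.1 ± 3.81 FPKM in embryo proper against 1.00 ± 1.78 in suspensor, and 17.3 ± 11.1 in apical cell against 2.18 ± 3.10 in basal cell (SD, n = 6 each; apical over basal log2 2.77, limma adjusted p = 3.41e-04). Otherwise it parted from T5L1. Embryo proper and apical cell did not differ in LHL3 beyond their spread (log2 0.42, limma adjusted p = 0.642), its apical cell libraries held 4.82, 10.04 and 12.06 FPKM with a Col mother against 16.43, 25.73 and 34.9 with a Ler mother, and it reached 8.02 FPKM in the third basal cell library with a Col mother, where T5L1 was at 0.

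Of 10 targets and inhibitors of the TMO5 and LHW dimer 7 were tested, and 6 of them were higher and 0 lower in embryo proper than in suspensor, against 28.5% and 22.4% of all tested genes, with a median difference of 3.14 against 0.12. Of these, LOG3, AHP6, ACL5, DOF2.1 and AT1G29950 passed the filter for testing only through embryo proper. Their direction was largely set by it, so the count and median do not measure an enrichment. The cytokinin-activating enzyme LOG4 was at 18.1 ± 2.13 FPKM in embryo proper, while suspensor libraries held 0.08 FPKM in 1 and 0 in 5. LOG4 was also higher in apical cell, at 9.56 ± 6.85 FPKM, than in basal cell, at 3.10 ± 5.04 FPKM (SD, n = 6 each; log2 1.99, limma adjusted p = 0.00307). It was the 1 of 7 tested genes of this list called there, a share near that of all tested genes, 11.8% higher and 12.2% lower. LOG3 averaged 1.77 ± 1.42 FPKM in embryo proper and was listed at 0 in the other 18 libraries. AHP6, a pseudo-phosphotransfer protein that dampens cytokinin signalling, ran from 2.17 to 66.2 FPKM in embryo proper and was at 0 elsewhere. ACL5, which makes the polyamine thermospermine, was at 10.4 ± 4.62 FPKM in embryo proper and at 0 elsewhere. AT1G29950, a bHLH gene annotated with upstream reading frames, was at 39.8 ± 8.72 FPKM in embryo proper (SD, n = 6), with suspensor libraries between 0 and 11.33 FPKM and apical and basal cell means of 0.10 and 0.17 FPKM.

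Dof factors related to TMO6 and genes around it were higher in embryo proper than in suspensor where they were tested, as were 28.5% of all genes. Of 6 Dof genes 3 were tested and all 3 were higher in embryo proper than in suspensor and than in apical cell. They passed the filter for testing only through embryo proper, so the direction was largely set by it. The share of all genes, 28.5% here and 10.2% against apical cell, is thus no like background for them. DOF2.4 (AT2G37590) was at 5.54 ± 2.75 FPKM and DOF6 (AT3G45610) at 7.08 ± 2.59 FPKM in embryo proper (SD, n = 6 each), and both were at 0 in the other 18 libraries. AT5G02460, annotated as a Dof gene, was at 28.1 ± 5.78 FPKM in embryo proper, with 0.67 and 9.31 FPKM in 2 suspensor libraries. Of 6 vascular genes around TMO6 4 were tested, each passing the filter only through embryo proper, so a higher level there was largely set by it. All 4 were higher in embryo proper than in suspensor. They were the boundary domain genes LBD3, at 8.41 ± 5.6 FPKM, and LBD4, at 5.38 ± 1.95 FPKM, the homeobox gene ATHB8, at 3.62 ± 1.49 FPKM, and SMXL3, a gene of phloem formation, at 1.82 ± 1.41 FPKM in embryo proper (SD, n = 6 each). LBD3 also stood at 10.4 FPKM in the second suspensor library with a Ler mother and LBD4 at 6.54 FPKM in the first with a Col mother, and both were at 0 in the other 5. WOX14 reached 0.15 ± 0.18 FPKM in embryo proper and was not tested. Singled out after their values were seen, the untested WOX4 and DOF5.6 (HCA2) were at 0 in embryo proper, with 2.69 FPKM of WOX4 in 1 apical cell library and 0.11 FPKM of DOF5.6 in 1 suspensor library.

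Of the 8 genes of the hypophysis and root list 3 were higher and 2 lower in embryo proper than in suspensor, shares near the 28.5% higher and 22.4% lower of all tested genes. NTT and WIP4, zinc finger factors that specify the founder cells of the root, were the 2 lower ones. NTT was at 0.17 ± 0.19 FPKM in embryo proper and 57.1 ± 21.4 FPKM in suspensor (SD, n = 6 each; log2 -5.58, limma adjusted p = 3.46e-13), and WIP4 was at 1.71 ± 2.17 FPKM in embryo proper and 97.1 ± 29.3 FPKM in suspensor. SHR, the mobile factor of the stele, was at 12.4 ± 2.79 FPKM in embryo proper and at 0 in the other 18 libraries, as TMO5 was. SHR passed the filter for testing only through embryo proper and NTT only through suspensor. The direction of both was thus set by the filter, and the counts of this list do not measure an enrichment. PLT1 was higher in embryo proper, at 104 ± 13.01 FPKM, than in suspensor, at 53.7 ± 20.0 FPKM (SD, n = 6 each; log2 1.02, limma adjusted p = 0.0214). WOX5, the marker of the quiescent centre, was at 5.85 ± 4.34 FPKM in embryo proper and 18.7 ± 19.7 FPKM in suspensor and was not called (log2 -0.56, limma adjusted p = 0.618).

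**Figure D5:**
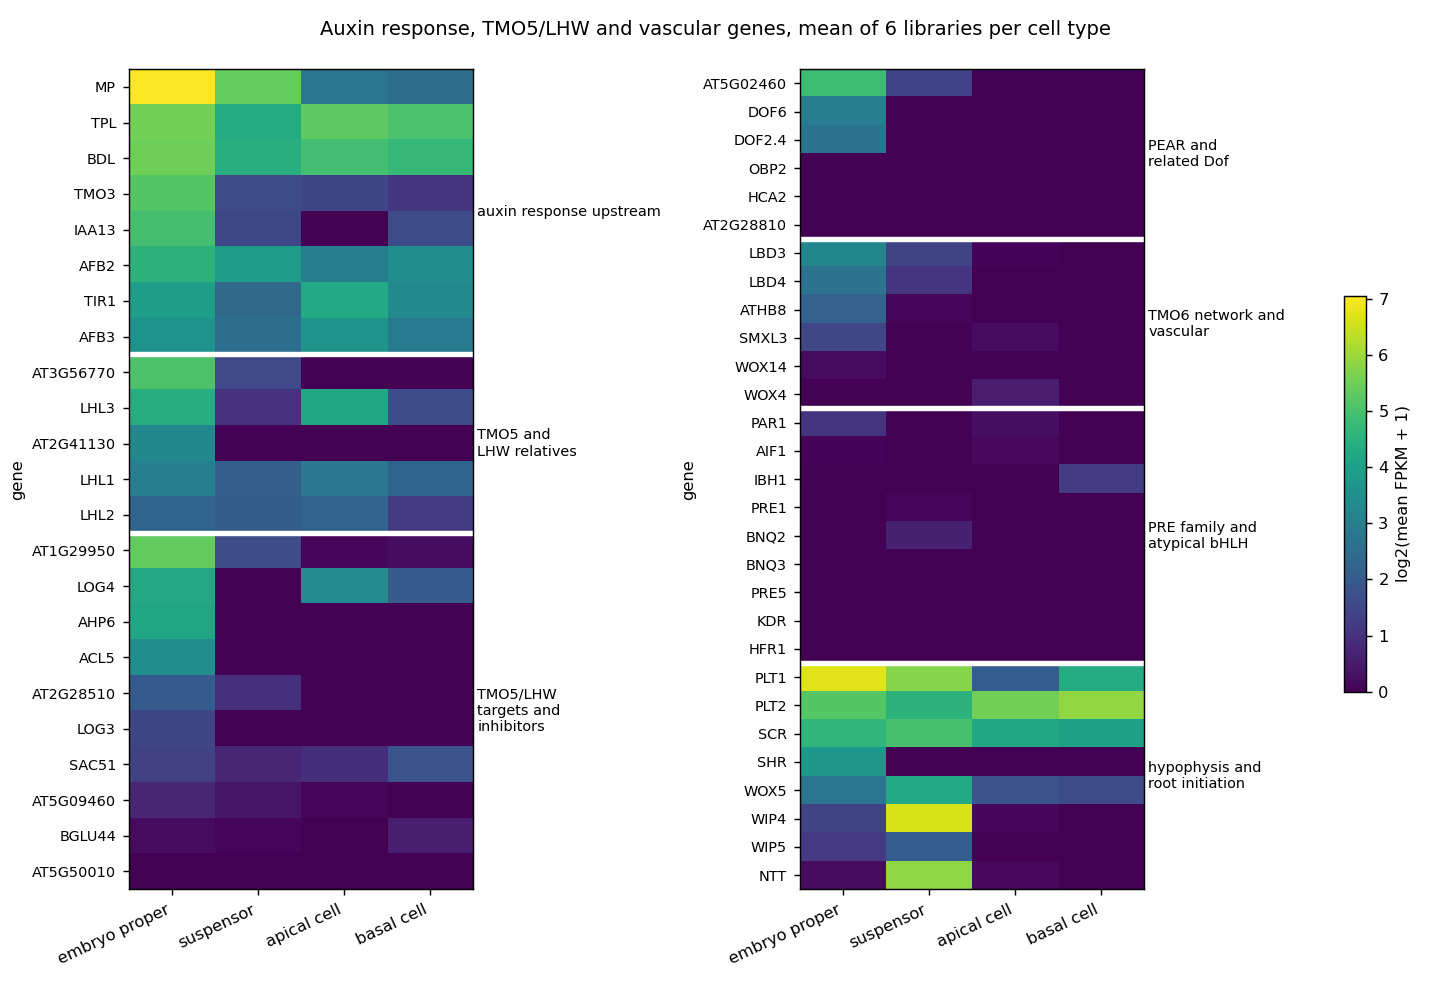
Mean level of the listed genes, as log2(mean FPKM + 1) on the colour scale, with genes down the page by list and cell types along the horizontal axis, each the mean of 6 libraries. MP, at 131 FPKM in embryo proper and 41.0 in suspensor, is bright in both cell types of the later stage, most relatives and targets of TMO5 and TMO6 are brightest in embryo proper, LHL3 and LOG4 are also bright in apical cell at 17.3 and 9.56 FPKM, and WIP4 and NTT are bright in suspensor.

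Among 14650 genes with a mean of at least 5 FPKM in some cell type, likeness to a member was measured as Pearson's r of log2(FPKM + 1) over the 24 libraries, which come from 4 cell types, so that few independent points stand behind it. The 3 genes most like TMO5 were DOF6 (r = 0.998), the RNA-binding protein gene MCT1 (r = 0.997) and PAP1 (IAA26), an auxin response repressor (r = 0.995). TMO6 held place 27 in that order (r = 0.978), and T5L1 and LHW stood at r = 0.748 and r = 0.680 with TMO5. The genes nearest to T5L1 were AT2G36410, AT5G49665 and CPK5, at r = 0.921, 0.918 and 0.913. For LHW they were AT3G11500 (r = 0.848), REV, a class III homeodomain factor (r = 0.837), and RPS15A (r = 0.834). For TMO6 they were AT3G25670 (r = 0.993), AT3G51670 (r = 0.991) and GSTU6 (r = 0.991). MP stood at r = 0.756 with TMO5 and r = 0.755 with TMO6 but at r = 0.384 with T5L1 and r = 0.361 with LHW.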

How the data were processed

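Gene expression was measured by RNA-seq in 24 libraries, 3 for each of 8 groups, and samples were grouped by their titles. The deposited values are FPKM per locus, to 2 decimals, made by the authors with RSEM and TopHat2 2.1.1 on TAIR10, per the submitters' processing notes, which give neither role nor order. Per the labels, 20 libraries were made with Nextera XT; for 4 the wording allows NEBNext as well, namely replicates 2 and 3 of basal cell Ler, replicate 3 of basal cell Col and replicate 1 of suspensor Ler. The files hold no coordinates; 31912 of 32399 loci matched RefSeq TAIR10.1 by locus tag, and names, loci, mRNA lengths and sequences come from there. The 18206 genes that reached an FPKM of 1 in 3 or more libraries were tested. A limma model (version 3.58.1, R 4.3.3) was fitted to log2(FPKM + 1) (8 group means in 1 fit, eBayes with trend), with Benjamini-Hochberg adjustment over all tested genes and a threshold of 0.05. Differences on that scale understate changes of low genes. The fit was tested on simulated data. Single values were compared with exact two-sided permutation tests over libraries. Depth was estimated as the scale at which low FPKM times mRNA length (less an assumed 100 bases) came closest to whole numbers. Python 3.11.15 was used with scipy 1.17.1, pandas 2.3.3, numpy 2.4.6 and, for figures, matplotlib 3.10.9.

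The members and gene lists were chosen with earlier results of these data known. All 5 members are given in full. Named from each list are up to 4 called genes with the largest difference between embryo proper and suspensor, or the 2 most abundant where none is called, and 13 further genes always. No 2 libraries held identical values. Separate plants for each replicate are not stated in the labels; the p-values rest on the spread among libraries, which may be technical. Alternatives were a pseudocount of 0.1 or of 5, the filter dropped or set at an FPKM of 5, rescaling to TPM, quantile and median-ratio scaling, library weights, the kit wording as a covariate, the fit without those 4 libraries, a replicate block, no trend, the compared cell types alone, each cross alone and each library left out. Alleles were not analysed here.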

Additional observations from a re-analysis of the deposited data

Results flagged for a closer look

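In TMO5, T5L1, LHW and TMO6 the lineage difference at 32 cells, embryo proper minus suspensor, exceeded that at 2 cells, apical minus basal cell. On the log2(FPKM + 1) scale the interaction was 5.45 for TMO5, 2.72 for T5L1, 2.55 for LHW and 3.67 for TMO6, with limma adjusted p of 6.76e-09, 0.00124, 7.36e-04 and 4.94e-08. TMO5 and TMO6 enter this with levels at or near 0 in both daughter cells, so their interaction equals their later difference to within 0.02. Both passed the filter for testing only through embryo proper, so the direction of their interaction was set by it.

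T5L1 in the suspensor stood out because a single library, the first with a Col mother, held 1.57 FPKM while the other 5 were listed at 0. The gap test behind this is built to pick out about 1 group in 20 of normally spread values, and 10 groups of 6 were examined. With 5 values at 0 and 1 above 0 the gap equals the whole range, so that rate does not apply here. The library also had 48.07 FPKM of summed seed coat markers, the most of any suspensor library. Of genes higher in embryo proper, HAN, LHL3 and LBD4 were likewise highest there among suspensor libraries, at 5.27, 4.56 and 6.54 FPKM. WOX2, DRN and PDF1 were highest in other suspensor libraries. So were AT3G56770, LBD3 and AT5G02460, at 11.61, 10.4 and 9.31 FPKM in the second with a Ler mother, and AT1G29950, at 11.33 FPKM in the third. The source of the T5L1 value was not tested.

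Col against Ler mother went opposite ways for T5L1 in the daughter cells, higher with a Col mother in apical cell and lower in basal cell. The difference between them was 3.36 (limma adjusted p = 0.0565).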

How the results depend on the processing

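The higher levels of TMO5, T5L1, LHW and TMO6 in embryo proper than in suspensor kept direction and call under all 16 other settings and on leaving out each library, as did those of TMO5 and TMO6 over apical cell. Within 1 cross several calls were lost, and uncalled differences changed direction. Within the cross with a Col mother T5L1 gave 1.23 in embryo proper minus apical cell, 0.45 in suspensor minus basal cell and 0.77 in the interaction, and LHW gave 1.57, -0.48 and 2.05. In the cross with a Ler mother T5L1 gave 0.83 in apical minus basal cell and -1.95 in suspensor minus basal cell, and LHW gave 0.18 in apical minus basal cell. With a pseudocount of 0.1, T5L1 in embryo proper minus apical cell gave 2.09, uncalled. LHW in suspensor minus basal cell was -0.94 and uncalled with no filter, with the replicate block, with the compared cell types alone and in the exact permutation test. It was -0.55 with a pseudocount of 5, -0.64 under quantile normalization, -0.80 under median-ratio scaling, -0.65 with library weights, -0.83 with the kit covariate and -0.83 without the 4 libraries of the other kit wording. LHW by mother in suspensor was 1.88 and uncalled with no filter, with the replicate block and with that cell type alone, 1.03 with a pseudocount of 5, 1.65 on the TPM scale, 1.49 under quantile normalization and 1.79 with weights. In basal cell it was called with weights, at 1.35 (limma adjusted p = 0.03). T5L1 by mother in basal cell was called at -4.36 with a pseudocount of 0.1, -2.08 under quantile normalization, -2.49 without the 4 libraries and -1.95 without trend. Its difference between apical and basal cell was called at 1.81 with a pseudocount of 5, 3.57 under quantile normalization, 3.89 without the 4 libraries and 3.36 without trend. On average over cell types T5L1 by mother was 0.070 with a pseudocount of 5 and 0.21 with weights, and TMO6 -0.023 with a pseudocount of 0.1, -0.052 under quantile normalization and -0.070 with weights; TMO6 in embryo proper was -0.27 with weights. LHW relative to TMO5 plus T5L1 in suspensor minus basal cell was 0.33 with a pseudocount of 0.1. Without the 4 libraries of the other kit wording basal cell Ler is 1 library, assumed to vary like the other groups, so the T5L1 values by mother in basal cell and between the daughter cells there rest on that 1 sample. Where a cross or library was left out fewer libraries were tested; otherwise the cause was not tested.

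Over all genes, those higher in apical than in basal cell numbered 2145 and with weights 3445, 998 within the Col and 1420 within the Ler cross; those lower numbered 2219 and within the Ler cross 1248. In embryo proper minus apical cell 1855 were higher, and 3200 with weights, 2872 with these cell types alone, 1218 and 1050 within the Col and the Ler cross; 2129 were lower, and 3673, 3590, 1132 and 1200 under the same settings. In the interaction 3506 were higher, and 2131 and 2330 within the Col and the Ler cross; 2949 were lower, and 1692 within the Col cross.

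By mother 529 genes were higher and 236 lower in suspensor, and 722 and 564 in basal cell. In suspensor these were 9 and 5 with weights, 0 and 0 with that cell type alone, 987 and 490 without the 4 libraries, 292 and 400 on the TPM scale and, without trend, 322 higher; they were 928 and 402 without the first Ler library, 953 and 541 without the third and 413 lower without the first Col library. In basal cell they were 2853 and 2191 with weights, 193 and 126 with that cell type alone, 349 lower without the 4 libraries, 463 and 339 without the first Col library, 453 and 304 without the second and 312 and 257 without the second Ler library.

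Leaving out 1 library at a time, LHW in suspensor minus basal cell ran from -1.13 to -0.70 and by mother in suspensor from 1.69 to 2.12, both mostly uncalled. T5L1 in suspensor minus basal cell ran from -1.20 to -0.44, by mother in basal cell from -2.85 to -1.33, in the difference between apical and basal cell from 2.73 to 4.25, by mother in embryo proper from -0.28 to 0.12 and on average from -0.27 to 0.11. By mother in embryo proper TMO5 ran from -0.38 to 0.79, LHW from -0.0046 to 0.18 and TMO6 from -0.32 to 0.45; on average TMO5 ran from -0.095 to 0.20 and TMO6 from -0.084 to 0.11. LHW ran from -0.52 to 0.10 in apical minus basal cell and from -0.45 to 0.80 by mother in apical cell. TMO5 relative to T5L1 in embryo proper minus suspensor ran from -0.0054 to 0.48, and LHW relative to both from -1.73 to -1.08 in embryo proper minus apical cell and from -0.64 to 0.14 in suspensor minus basal cell.

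Replicate numbers did not pair the libraries, judged by each library's deviations from the means of its group. These deviations correlated at a median r of 0.0047 between same-numbered libraries of different groups (-0.178 to 0.303 over 84 pairs, 3 over 0.1). Between libraries of different number and group the median r was -0.00174 (-0.266 to 0.264 over 168 pairs, 3 over 0.1). Among libraries of other groups, 8 of 24 correlated best with their own number. With the replicate block the 2 LHW calls above were lost. Depth limits low values: 1 fragment is worth up to 0.0819 FPKM for TMO7, and T5L1 at 0.12 FPKM rests on few fragments.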

Other observations

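LOG4, an enzyme of cytokinin activation and a target of TMO5 and LHW, had much the same pattern as T5L1 by library, which was noticed after the values were seen. In basal cell both were listed at 0 in all 3 libraries with a Col mother. With a Ler mother LOG4 stood at 11.94, 0.16 and 6.49 FPKM and T5L1 at 4.61, 0.12 and 8.25 FPKM in the same libraries, so both were low in the second. LOG4 was called lower with a Col mother in basal cell (log2 -2.27, limma adjusted p = 0.0387), as were 3.10% of all tested genes. That share is 564 genes, against 126 with that cell type alone and 2191 with library weights. Replicates 2 and 3 with a Ler mother are among the libraries for which another kit is named. The LOG4 call was not followed under other settings. In the apical cell the 2 genes parted: LOG4 stood at 5.02, 2.35 and 9.35 FPKM with a Col mother and 19.02, 4.92 and 16.72 FPKM with a Ler mother, an uncalled difference of -1.11 (limma adjusted p = 0.829), whereas T5L1 was higher there with a Col mother in 3 of 3 libraries. Over the 24 libraries both were above 0 in 15 and both at 0 in 7, and Pearson's r of log2(FPKM + 1) was 0.905. The points are 6 libraries from each of 4 cell types, so few independent points stand behind it.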
